A study of Mus musculus with 4 samples.

Results

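The genes described here make up the enzyme set that writes, maintains and removes DNA methylation: Dnmt1, Dnmt3a, Dnmt3b, Tet1, Tet2, Tet3 and Uhrf1. They were examined in GLORI data, in which N6-methyladenosine (m6A) is read at single adenosines of poly(A) RNA. A site belonged to a gene when its position and strand fell inside the gene's listed span. Of the 7 genes, 4 had a span in the lists: Dnmt1, Dnmt3b, Tet3 and Uhrf1. Dnmt3a, Tet1 and Tet2 were not analysed here. The 4 genes held 715 of 881997 listed sites, and none of these lay within another listed protein-coding gene on the same strand. The feature deposited beside a site was mostly not the gene itself. It was the gene for 41 of 193 and 32 of 209 wild-type entries and for 34 of 198 and 22 of 178 KO entries. The intron mark deposited with a site often goes with such another feature, so it is printed only as deposited.

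The RNA came from mouse retinal organoids, cultured tissue that stem cells form on the way to retina, collected on day 4 of differentiation. The study compared the wild-type Rx:GFP line with a Mettl3 knockout (KO) of Rx:GFP, in 2 libraries each. Rx:GFP is a fluorescent reporter of Rax, an early eye field gene, and METTL3 is the enzyme that places most m6A on mRNA. Per the labels' protocols the KO line also carried a doxycycline-inducible HA-METTL3, the treatment is given as none, and both lines were grown with AGN. All 4 libraries carried the same batch label. The labels do not say whether replicates came from separate differentiations, so each p-value measures the spread between these libraries, which may be technical.

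DNA methylation is copied to the new strand after replication by DNMT1, which UHRF1 brings to half-methylated CpG sites. DNMT3A and DNMT3B set methylation on unmethylated DNA, and the TET enzymes oxidise methylcytosine as a step of its removal. The RNAs of these enzymes can themselves carry m6A, and the comparison of wild type with Mettl3 KO asks at which of their adenosines the unconverted share depends on genotype.

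In GLORI, unmodified adenosine is deaminated and read as G, while m6A is still read as A. The level of a site is the fraction of its reads that stayed A, and its coverage is the count of A and G reads. No listed site had fewer than 15 reads, fewer than 5 unconverted reads or a level under 0.1, and the authors' p never exceeded 0.004, so lower levels were not detectable. The libraries listed 227298 and 288516 sites in the wild type against 230299 and 215850 in the KO, at median coverages of 38 to 41 reads. The targeted gene, Mettl3, was covered by 18 and 15 sites in wild-type lists and by 20 and 21 in KO lists. Its coverage relative to the median gene was 1.00 and 0.801 against 1.16 and 1.04 (log2 change 0.29 ± 0.18 SE; limma adjusted p 0.346), and the labels do not give the lesion's position.

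The 4 genes together had 193 and 209 listed sites in wild-type replicates 1 and 2, and 198 and 178 in KO replicates 1 and 2. The genotypes overlapped. Wild-type lists held a mean of 201 ± 11.3 sites and KO lists 188 ± 14.1 (SD, n = 2 libraries per genotype; two-sided exact permutation p = 0.667; with 2 libraries against 2 it cannot go below 1 in 3). Median levels of the listed sites were 0.212 and 0.211 in the wild type against 0.202 and 0.221 in the KO. These medians describe sites that had already passed the lists' minima.

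Most of these sites were seen once. Of the 715 sites, 657 (91.9%) were in 1 list, 54 in 2, 3 in 3 and 1 in all 4, and over all genes 91.9% of sites were likewise in 1 list. Both wild-type lists held 20 sites in common, 5.24% of their union, and the KO libraries shared 9, 2.45% of theirs. Pairs of 1 wild-type and 1 KO library shared 8 to 12 sites, so the KO pair lay within the range of the mixed pairs and the wild-type pair above it. This is not read as particular to the 4 genes. Over all genes with sites in all 4 libraries, wild-type lists also shared more sites of at least 20 reads, 22400 against 8981. Entries seen in 1 list had a median coverage of 40 reads and those seen in 2 or more lists 53 reads.

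**Figure D1:**
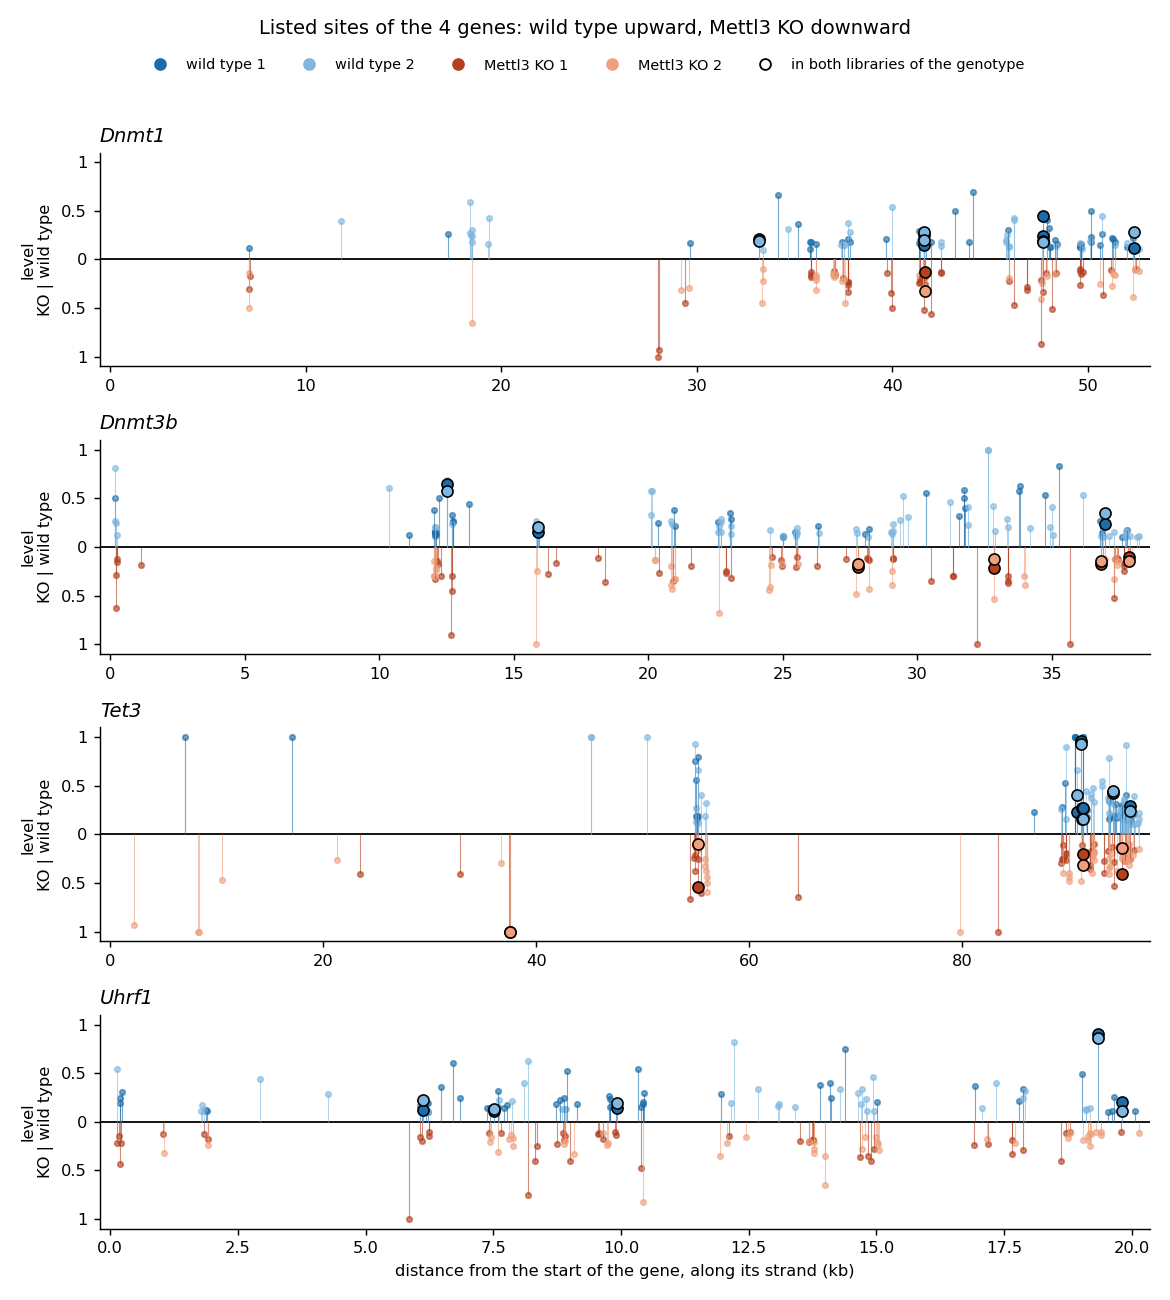
Level of each listed site (fraction of reads unconverted) against distance from the gene's start along its strand in kb, with wild-type libraries drawn upward and KO libraries downward; ringed points are sites in both libraries of a genotype. The pair of tall ringed wild-type points of Uhrf1, at 0.904 and 0.859, has no ringed counterpart below, and those of Tet3, at 0.963 and 0.926, stand over 1 KO site at 0.482.

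Uhrf1, the reader of half-methylated DNA, spans 20166 bases (ENSMUSG00000001228, chromosome 17, 56610321 to 56630486, plus strand, as listed). It carried 177 sites, with 53 and 42 in the wild-type lists and 47 and 45 in the KO lists. The genotypes overlapped in number. Median levels were 0.202 and 0.189 in the wild type against 0.184 and 0.205 in the KO.

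The deepest site of the set lay near the 3′ end of Uhrf1, at position 56629656, 19335 bases from the start and 830 bases before the end, with no intron mark. Its level was 0.904 over 762 reads in wild-type replicate 1 (Wilson 95% interval 0.881 to 0.923) and 0.859 over 1121 reads in replicate 2 (0.837 to 0.878). Neither KO library listed it. Here and below, expected coverage was scaled from each library that listed the site by the ratio of the gene's coverages, and the lowest estimate kept. This gave an expected KO coverage of 676 and 521 reads, at which a level of 0.101 or 0.102 would have been enough for listing. The nearest listed site of KO replicate 2 was 26 bases away with 545 reads and a level of 0.103. In KO replicate 1 the nearest was 455 bases away with 249 reads. Most wild-type reads of this position thus stayed unconverted in both libraries, and its KO level has no measured value.

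A second site of the Uhrf1 end, at 56630122 and 364 bases before the end, had levels of 0.207 over 391 reads and 0.115 over 541 reads in the wild type. It was in neither KO list, at an expected coverage of 326 and 252 reads. The wild-type interval of replicate 2 (0.090 to 0.144) reached below the level needed for listing, so absence at this site does not separate the genotypes. The other Uhrf1 sites shared by the wild-type libraries, at 56616443, 56617833 and 56620248, had levels between 0.111 and 0.224. All 5 shared wild-type sites with at least 20 reads in both were absent from both KO lists. The KO libraries shared no Uhrf1 site, out of 92 in their union.

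Dnmt1, the maintenance methyltransferase, spans 52680 bases (ENSMUSG00000004099, chromosome 9, 20818505 to 20871184, minus strand). It had 168 sites, 52 and 44 in the wild type against 49 and 38 in the KO. Over the last 20% of the span (10.5 kb at the 3′ end), the lists held 29 and 23 wild-type sites and 20 and 13 KO sites, or 55.8% and 52.3% against 40.8% and 34.2% of each library's Dnmt1 sites. In Tet3 this share was also lower in the KO, at 79.1% and 80.0% in wild-type lists against 68.9% and 69.2% in KO lists. In Dnmt3b the same share was 31.1% and 36.8% in wild-type lists and 36.8% and 37.2% in KO lists, and in Uhrf1 it was 18.9% and 21.4% against 19.1% and 31.1%, both higher in the KO on average. These shares were computed after the map of sites had been seen, for the 4 genes alone, and were not tested. No share over all genes stands beside them, so they are not read as particular to a gene.

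The Dnmt1 site closest to the end among those shared by the wild type, at 20818821 and 316 bases before the end, had a level of 0.121 over 527 reads in replicate 1 and 0.282 over 570 reads in replicate 2. The intervals of the wild-type libraries, 0.096 to 0.152 and 0.247 to 0.321, did not overlap, so replicates differed there beyond counting error. Neither KO list held it at an expected 363 and 288 reads. The nearest KO sites, however, had 216 reads at 104 bases and 81 reads at 26 bases.

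An internal stretch of Dnmt1 had listed sites in every library. Within it, the site at 20829579 had levels of 0.247 over 158 reads and 0.284 over 183 reads in the wild type. The site at 20829541 had 0.152 over 283 and 0.20 over 375 reads. Both were absent from both KO lists, at expected coverages of 116 and 92.4 reads for the first and 236 and 187 for the second. The KO sites nearest the first, however, had 27 reads at 31 bases and 98 reads at 12 bases. Those nearest the second had 96 reads at 2 bases and 83 reads at 13 bases. Nearby KO depth was thus below the expectation except in KO replicate 2 at the first site. The KO libraries shared a site 13 bases from the second one, at 20829528, with levels of 0.124 over 89 reads and 0.325 over 83 reads. At 20829543, KO replicate 1 had a level of 0.521 over 96 reads and wild-type replicate 2 one of 0.168 over 376 reads. The last 2 positions were named after their values were seen. Both genotypes thus had listed sites in this stretch, and the sites shared by the wild type were not those shared by the KO.

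The remaining named Dnmt1 sites were thinly covered. Levels were 0.238 and 0.188 at 20823492, over 21 and 48 reads, and 0.208 and 0.186 at 20837976, over 24 and 43 reads. KO expectations of 13.9 to 20.0 reads left little room to list them. All 5 wild-type shared sites of Dnmt1 with at least 20 reads were in neither KO list.

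Dnmt3b, a methyltransferase of unmethylated DNA that is active in early embryonic cells, spans 38281 bases (ENSMUSG00000027478, chromosome 2, 153491370 to 153529650, plus strand). It had 196 sites, 45 and 68 in the wild type against 57 and 43 in the KO, and the genotypes overlapped. Only 0% to 2.94% of its sites per library carried the deposited intron mark.

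The site at 153528331, 1319 bases before the end, had a level of 0.233 over 223 reads in wild-type replicate 1 and 0.353 over 363 reads in replicate 2. It was in neither KO list at an expected 174 and 130 reads, and KO sites at 56 and 31 bases had 117 and 214 reads. Both wild-type intervals (0.182 to 0.293 and 0.305 to 0.403) lay above the level of 0.103 or 0.100 needed for listing in the KO. The other named wild-type site, at 153507281, had levels of 0.154 over 39 reads and 0.208 over 53 reads and an expected KO coverage of 30.4 and 22.7 reads.

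Dnmt3b also carried sites shared by the KO libraries, 4 in number, which were named after their values were seen. At 153529219, 431 bases before the end, KO levels were 0.108 over 204 reads and 0.149 over 154 reads, and neither wild-type list held the site at an expected 261 and 318 reads. The interval of KO replicate 1 (0.072 to 0.158) reached below the level of 0.103 or 0.101 needed for listing in the wild type. Absence at this site thus does not separate the genotypes. At 153528203, levels were 0.176 over 68 and 0.149 over 47 reads in the KO, and wild-type replicate 2 listed it at 0.115 over 192 reads. KO levels were 0.205 and 0.174 at 153519170 and 0.214 and 0.119 at 153524236, where KO intervals also reached below the level listable in the wild type. A wild-type shared site of higher level, at 153503896, had 0.645 over 31 reads and 0.579 over 19 reads. Its expected KO coverage of 12.2 and 9.1 reads was below the minimum of 15, so its absence from the KO lists says nothing.

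Tet3, an oxidase of methylcytosine, spans 96712 bases (ENSMUSG00000034832, chromosome 6, 83339355 to 83436066, minus strand). It had 174 sites, 43 and 55 in the wild type against 45 and 52 in the KO. They lay mainly in the last 20% of the span (19.3 kb), which held 79.1% and 80.0% of its wild-type sites and 68.9% and 69.2% of its KO sites. A second group lay between 54 and 57 kb from the start, with 7 and 8 wild-type and 9 and 9 KO sites. Tet3 was the only one of the 4 genes with a site in all 4 lists, and it had 1 such site. Over all genes, 821 had such a site with at least 20 reads in each library.

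A cluster of 3 recurring sites covered 98 bases of the Tet3 end, 5409 to 5507 bases before the end. All 3 carry the deposited intron mark. The deposited feature was Tet3 for only 1 and 0 of the gene's wild-type entries and 0 and 3 of its KO entries. The mark therefore does not place these sites in a Tet3 intron. The first, at 83344862, had a level of 0.963 over 54 reads in wild-type replicate 1 (0.875 to 0.990) and 0.926 over 122 reads in replicate 2 (0.866 to 0.961). In KO replicate 2 it was still listed, at 0.482 over 110 reads (0.391 to 0.574). KO replicate 1 did not list it, at an expected 65.4 reads and with a site 44 bases away read 272 times. All 3 listed libraries were far above the minimum, and the KO library lay below both wild-type libraries. With KO replicate 1 left out, which leaves 1 KO library assumed to vary like the wild type, edgeR's quasi-likelihood test gave a log2 odds change of -4.03 (adjusted p 0.0478). In that fit 5.22% of 3163 sites over all genes were called.

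The middle site, at 83344818, had levels of 0.268 over 190 reads and 0.155 over 322 reads in the wild type and 0.107 over 272 reads in KO replicate 1. KO replicate 2 did not list it at an expected 243 reads. The third site, at 83344764, was in all 4 lists. Its levels were 0.268 over 41 reads and 0.160 over 50 reads in the wild type against 0.20 over 45 reads and 0.311 over 61 reads in the KO. The genotypes overlapped at this site. Its log2 odds change was 0.41 (edgeR quasi-likelihood test, adjusted p 0.932), and 2.63% of the 1557 sites tested over all genes passed the threshold of an adjusted p of 0.05. As the only site of the 4 genes in this test, it was also the pooled level of Tet3, with a log2 odds change of 0.41 (adjusted p 0.957), against 5.85% of 821 genes called. Within 98 bases of one RNA, a site near 1 in the wild type thus stood beside one whose level overlapped between genotypes.

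Tet3 at 83341877, 2522 bases before the end, had levels of 0.421 over 38 reads and 0.443 over 61 reads in the wild type. It was in neither KO list at an expected 46.0 and 48.6 reads. The nearest KO sites had 21 reads at 58 bases and 79 reads at 142 bases. At 21 reads a level of 0.238 would have been needed for listing. The one site that met the rule for high KO levels, at 83380909, lay in the group between 54 and 57 kb. Its level was 0.545 over 123 reads in KO replicate 1 and 0.100 over 60 reads in KO replicate 2, and the KO libraries differed far beyond counting error. At 83398558, a site named after its values were seen, all 16 and all 17 reads of the KO libraries were unconverted. Its expected wild-type coverage of 13.2 and 13.9 reads was below the minimum for listing, and the gene value there is the chromosome-wide one.

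**Figure D2:**
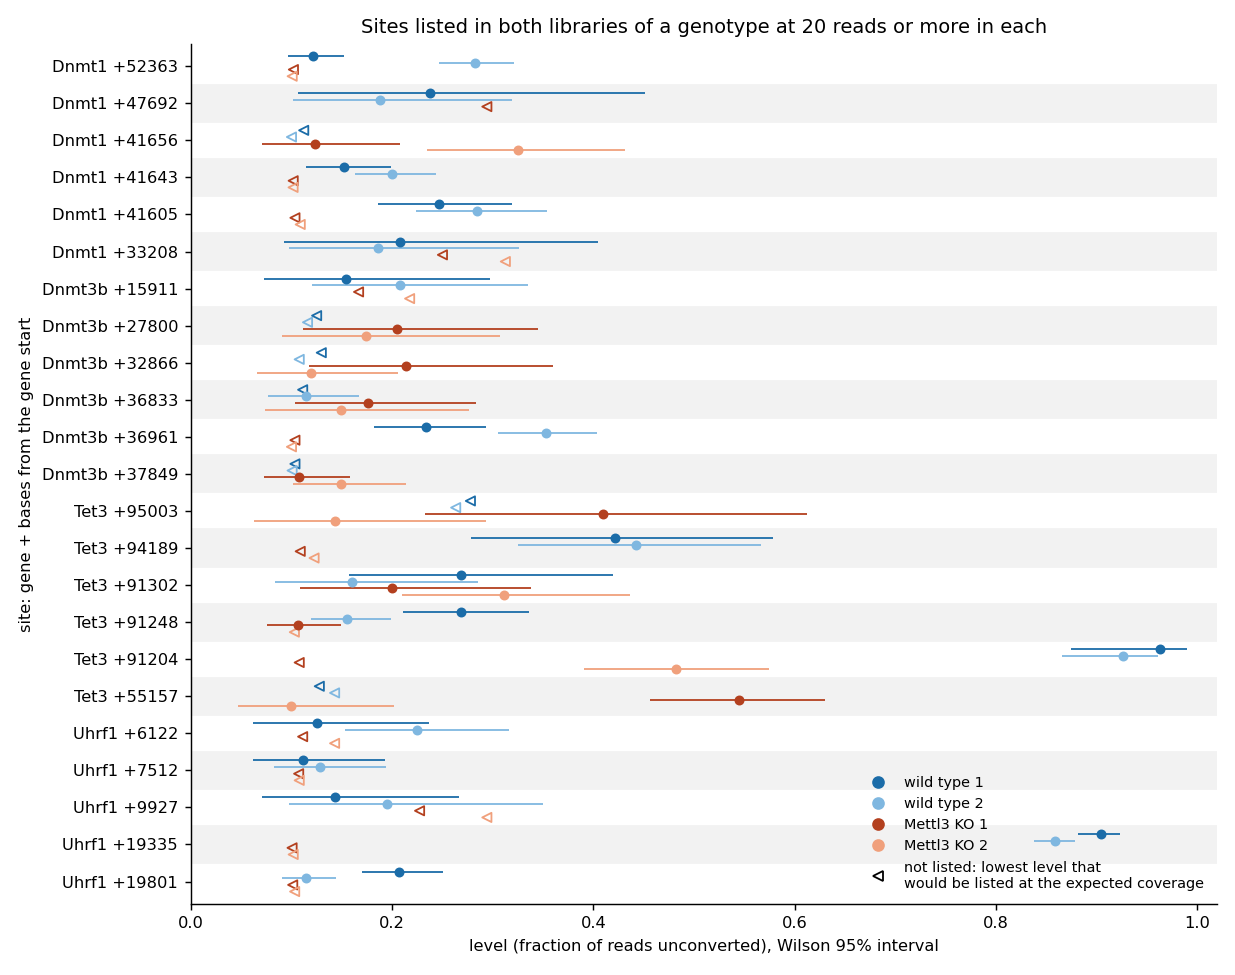
Levels with Wilson 95% intervals at the sites that were in both lists of a genotype with at least 20 reads in each, named by gene and bases from its start; open triangles mark a library that did not list the site, at the lowest level that would have been listed at its expected coverage. Only the Uhrf1 site at 19335 and the Tet3 site at 91204 have wild-type levels above 0.85, and KO replicate 2 lists the latter at 0.482.

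Over the 4 genes, 16 sites were in both wild-type lists with at least 20 reads in each, and 13 of them (81.2%; Wilson 95% interval 57% to 93.4%) were in neither KO list. The background, over all genes with listed sites in all 4 libraries, was 82.9% of 22400 sites, so the share of the 4 genes was close to it. Genes without a site in some library, such as Rax, are not in this background. By gene the counts were 5 of 5 for Dnmt1, 2 of 2 for Dnmt3b, 1 of 4 for Tet3 and 5 of 5 for Uhrf1, too few to separate the genes by their intervals. In the reverse direction, 6 of 8 sites shared by the KO lists (75.0%; 40.9% to 92.9%) were in neither wild-type list. The background over the same genes was 72% of 8981 sites. At each of these 6 sites a KO interval reached below the lowest level listable at the expected wild-type coverage. At 5 of the 13 sites both wild-type intervals lay above the lowest level listable at the expected KO coverage in both libraries: 2 in Dnmt1 and 1 each in Dnmt3b, Tet3 and Uhrf1. At the other 8, counting error alone could place the level below what would be listed, or the expected coverage was too low. The count of 5 rests on expected coverage, and some nearby KO sites had fewer reads. Nearest to Dnmt1 20829541, KO replicate 2 had 83 reads, at which the lowest listable level was 0.120. That lay above the lower bound of wild-type replicate 1 there, 0.115. At Dnmt1 20829579 that bound was 0.186, against 0.185 listable at the nearest site of KO replicate 1.

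High levels at good depth were rare in both genotypes. Sites with at least 50 reads and a level of at least 0.5 numbered 3 and 2 in wild-type libraries and again 3 and 2 in KO libraries (two-sided exact permutation p = 1). The wild-type ones were the Uhrf1 and Tet3 sites above in both libraries and, in replicate 1, a Uhrf1 site at 56619259 with 0.526 over 78 reads. The KO ones lay at 5 different positions with levels of 0.50 to 0.545. They were Dnmt1 20829543 and 20823030 and Tet3 83380909 in replicate 1, and Dnmt1 20864083 and Dnmt3b 153524203 in replicate 2. In the wild type 2 of the positions met these minima in both libraries, and in the KO none did. Whether the genotypes differ in this was not tested. At any coverage, a level of at least 0.5 was reached by 31 of 193 and 28 of 209 sites in the wild type. In the KO it was reached by 22 of 198 and 14 of 178 sites. No share over all genes stands beside these counts, so they are not read as a result about the 4 genes. Sites with a level of 1 had at most 43 reads.

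**Figure D3:**
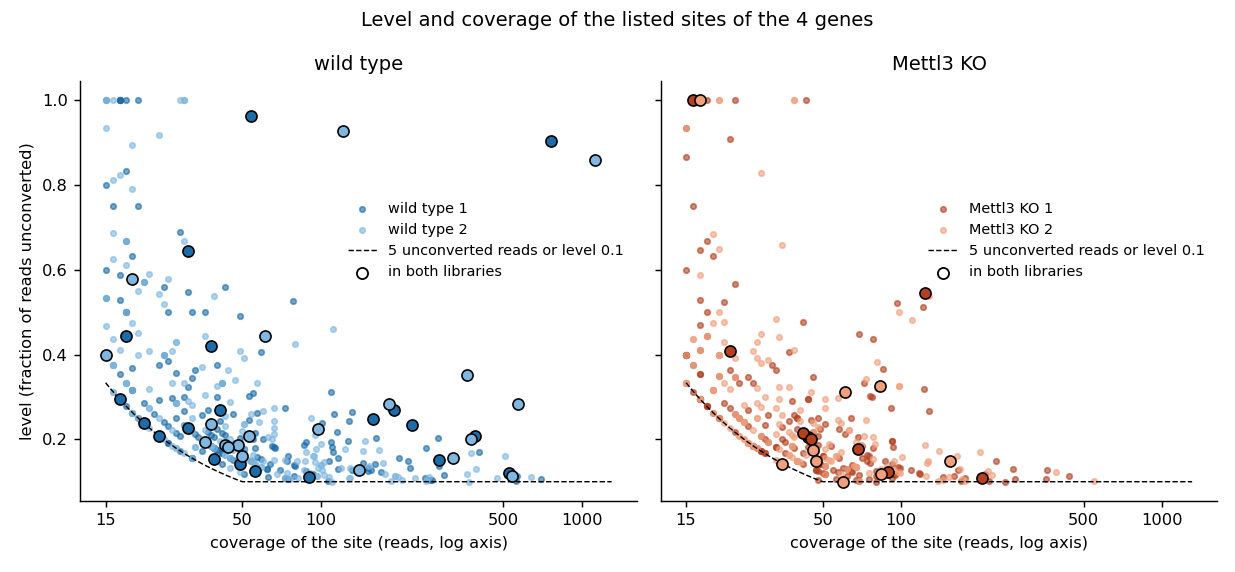
Level of each listed site of the 4 genes against its coverage in reads (log axis), wild type left and KO right; the dashed line marks 5 unconverted reads or a level of 0.1, and ringed points are sites in both libraries of the genotype. Above 100 reads, levels over 0.6 occur only in the wild-type panel, at the Tet3 and Uhrf1 sites with 122, 762 and 1121 reads.

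RNA coverage of the genes was compared next, from the coverage signal that the lists give for the gene around a site, divided by that of the median gene in the same library. Uhrf1 had 4.17 and 5.88 in the wild type against 3.81 and 3.39 in the KO. Dnmt1 had 1.87 and 2.15 against 1.47 and 1.34. Dnmt3b had 3.38 and 3.61 against 2.48 and 2.14. Tet3 had 0.821 and 0.761 against 0.937 and 1.14. In each of the 4 genes the genotypes did not overlap, with the KO lower in Uhrf1, Dnmt1 and Dnmt3b and higher in Tet3. Over all 8245 genes the genotypes did not overlap in 54.1%, and the count is read against that share.

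None of these differences passed limma's test over all genes. The log2 change was -0.60 ± 0.17 for Dnmt3b (SE; adjusted p 0.0597), -0.51 ± 0.17 for Dnmt1 (adjusted p 0.0958), -0.46 ± 0.19 for Uhrf1 (adjusted p 0.180) and 0.39 ± 0.17 for Tet3 (adjusted p 0.206). Unadjusted p was 0.00424, 0.0106, 0.0356 and 0.0458 in that order, under 0.05 for 4 of 4, as it was for 23.3% of all genes. Leaving out 1 library moved 2 of these changes by over 1.5 times, Uhrf1 to -0.22 without wild-type replicate 2 and -0.71 without replicate 1, and Tet3 to 0.25 without KO replicate 2. Across all genes, 3.14% were called lower in the KO and 2.69% higher. In bulk samples such as these, fewer cells of a type and less RNA per cell cannot be told apart.

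Of the 8 cell type markers with a coverage value in every library, 4 passed the same test, 3 lower and 1 higher in the KO. Of the eye field genes, Six3 fell from 16.3 and 17.6 times the median gene in the wild type to 1.80 and 2.45 in the KO (log2 change -3.01 ± 0.19 SE; limma adjusted p 7.98e-06). Lhx2 fell from 4.25 and 4.61 to 0.636 and 0.628. Pax6 was at 2.21 and 2.23 against 2.61 and 2.23, and Rax had 20 and 35 listed sites against none. Six6 had no listed site in any library. Summed over the 3 eye field markers with a coverage value, coverage was 22.8 and 24.5 against 5.05 and 5.31. Of the pluripotency markers, Pou5f1 fell (0.923 and 1.11 against 0.672 and 0.599, adjusted p 0.0458), and it and Nanog, the 2 of 5 markers with a coverage value, summed to 3.08 and 3.70 against 2.33 and 1.87. Among 6 midbrain, hindbrain and neural crest markers, 1 of 3 tested rose, Wnt1 (0.409 and 0.302 against 1.33 and 1.87). These 3 summed to 2.01 and 1.62 against 2.96 and 3.53. The 7 mesoderm and endoderm markers had 0 to 4 listed sites per library and gave no coverage. The part of these cell type differences in the coverage of the 4 genes was not tested.

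The conversion rate of a gene is the percent of its adenosines read as G over the gene, a measure that does not depend on which sites were listed. It was 95.7% and 95.6% in the wild type against 97.1% and 96.1% in the KO for Dnmt1, 97.0% and 96.9% against 97.3% and 96.8% for Dnmt3b, 96.7% and 96.8% against 97.8% and 97.4% for Tet3, and 96.3% and 96.5% against 97.6% and 97.0% for Uhrf1. The median gene stood at 96.1% and 96.2% against 97.2% and 96.6%, so conversion was higher in both KO libraries for the typical gene too. Relative to that median, the log2 odds of staying unconverted changed by -0.05 in Dnmt1, 0.26 in Dnmt3b, -0.14 in Tet3 and -0.10 in Uhrf1. No gene of the 4 passed limma's test (adjusted p 0.475 to 0.884), nor did any of the 8245 genes (0%), of which 1061 had an unadjusted p under 0.05. In Dnmt3b the genotypes overlapped, and in the other 3 genes conversion was higher in each KO library than in either wild-type one, which held for 50% of all 8245 genes.

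**Figure D4:**
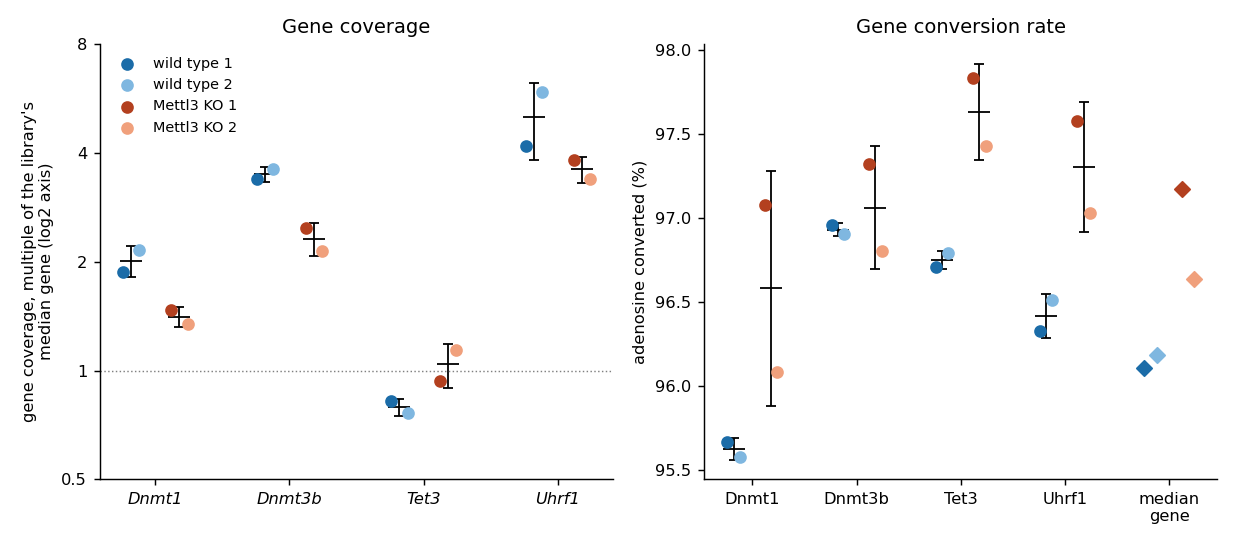
Left, gene coverage over that of the median gene (log2 axis); right, percent of adenosine converted over the gene, with the median gene as diamonds; points are libraries, and bars are the mean and SD of the 2 libraries of a genotype. Dnmt1, Dnmt3b and Uhrf1 lie lower in the KO and Tet3 higher, and conversion in each KO library exceeds that in either wild-type library for Dnmt1, Tet3, Uhrf1 and the median gene, as in 50% of all genes.

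The 3 genes whose coverage over the 4 libraries was most like that of Dnmt3b, by Euclidean distance of log2 multiples, were Ykt6 (0.141), Dync1i2 (0.179) and Dpf2 (0.180). Ykt6, for example, stood at 3.33, 3.82, 2.50 and 2.31 times the median gene.

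Other genes of DNA methylation and its removal were taken as a list of 30, including cofactors, readers of methylated CpG, base excision repair and the supply of the methyl donor. Of these, 28 had a span and 23 had a coverage value in every library. Of the 23, 1 rose and 1 fell, against 2.69% and 3.14% over all genes. Dnmt3l, the inactive partner that stimulates DNMT3 enzymes, fell from 1.42 and 1.28 in the wild type to 0.810 and 0.503 in the KO (log2 change -1.08 ± 0.22 SE; limma adjusted p 0.0172). Apex1, the endonuclease that cuts abasic sites in base excision repair, rose from 7.44 and 6.40 to 16.5 and 12 (1.03 ± 0.19 SE; adjusted p 0.0128). The median log2 change was -0.15 over the 23 genes, with 8 positive and 15 negative, and -0.02 over all genes. Among genes of this list with sites in all 4 libraries, 75 of 90 sites shared by the wild-type lists (83.3%) were in neither KO list. Of their shared KO sites, 28 of 36 (77.8%) were in neither wild-type list. Each share was near the background given above.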

How the data were processed

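GLORI libraries of 2 wild-type and 2 Mettl3 KO organoid samples were compared, grouped and numbered by their titles. The authors deposited 1 list of sites per library. Per the file headers, these give counts of A and G reads and of A reads, the fraction unconverted (the level), the coverage signal and conversion fraction of the gene, and a p-value with its adjusted p-value. Aligner and caller are not given in the sources used here. The authors' p-value matched a one-sided binomial test with an error of 1 minus the conversion fraction (median factor 1.01, largest 1.50), which set the lowest listable level at a given coverage. The submitters' processing notes name mm10, but inside promoter windows 41 of 212 listed positions fell on A in GRCm38, against 273 of 274 read by distance from the listed gene start. Positions are therefore printed as listed, and no sequence, exon or UTR was assigned. Repeated positions were collapsed.

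Sites in all 4 lists with at least 20 reads were tested with edgeR 4.0.16 (quasi-likelihood, a term per library) in R 4.3.3, and gene values of 8245 genes with limma 3.58.1 on log2 coverage and log2 odds, centred on the median gene. The threshold was a Benjamini-Hochberg adjusted p of 0.05 over all features. Chromosome-wide gene values and genes with several values were left out of the gene values. The tests were checked on simulated data. The simulated coverage changes were larger than those of the 4 genes, so the check does not tell how often such changes would be missed. Named sites were those in all 4 lists, the 5 highest wild-type levels per gene among shared sites with at least 20 reads, and shared KO sites with a mean level of at least 0.3. Of the other pathway genes, those past the coverage threshold were named. The members and lists were chosen with earlier results of these data known. Reads are not independent molecules, so Wilson 95% intervals cover counting error only. Alternatives were other tests, minima and centring, a replicate block, leaving out each library and, added after seeing the data, a minimum of local KO coverage. A planned marker is not reported here.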

Additional observations from a re-analysis of the deposited data

How the results depend on the processing

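No gene of the 4 passed the coverage or conversion test under any alternative run, and leave-one-out fits kept the sign of all 4 coverage changes, though Uhrf1 ranged from -0.71 to -0.22 and Tet3 from 0.25 to 0.53. The Tet3 site at 83344862 could be tested only without KO replicate 1, which did not list it. Its log2 odds change there was -4.03, with 1 KO library left. The Tet3 site in all 4 lists changed by -0.058 without wild-type replicate 2 and -0.088 without KO replicate 2, in log2 odds (leave-one-out range -0.088 to 0.87). The unconverted odds of Dnmt1 changed by 0.035 without KO replicate 1 (range -0.14 to 0.035), and those of Dnmt3b by -0.071 without centring. Among sites common to the wild-type lists, the share missing from the KO was 100% (3 of 3) when the deposited feature had to be the gene. It was 57.1% (4 of 7) with a KO site of at least 50 reads within 100 bases in each KO library, chosen after seeing the data. Neither share has one over all genes under the same restriction beside it, so neither is compared with the background. The KO minus wild-type difference in well covered high sites was 2 at a level of at least 0.3, and -5 at 20 reads. A coverage minimum of 50 left no site of these genes to test.

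The replicate numbers do not pair the samples (correlation of deviations -0.03 over genes and 0.06 over sites). With the replicate block, 0 of 4 genes passed the coverage test (Dnmt3b adjusted p 0.0681), 0 sites passed, and no call changed. Over all genes, called coverage changes numbered 222 higher and 259 lower, 101 and 299 without centring (median gene at -0.13, not -0.02), and 36 to 212 higher and 38 to 189 lower with a library left out. Called sites numbered 41 lower, 11 higher and 58 lower by the likelihood ratio test, and 0 to 157 lower with a library left out. Pooled levels called numbered 4 higher and 44 lower, 1 and 30 by limma, and 0 to 13 and 66 to 196 with a library left out.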
